A study of Mus musculus with 34 samples.

Results

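The comparison set GFP+ cells against GFP- cells within the CD24+CD29lo gate, the luminal gate of mouse mammary epithelial cells (MECs). Its members were the 9 arrays labelled GFP+ CD24+CD29lo and the 10 labelled GFP- CD24+CD29lo, 19 of the 34 arrays of the series. The other 15 arrays came from the CD24+CD29+ gate and are used below only to compare the gates. All cells were sorted from mice 4 weeks of age of a CD1 background backcrossed to FVB. The mice carried MMTVrtTA, a doxycycline-dependent activator driven by the mouse mammary tumor virus promoter, together with a tetracycline-inducible fusion of histone H2B and GFP (H2BGFP), and received doxycycline. Both groups therefore carried both transgenes and the drug, and were told apart only by whether the sorted cell was fluorescent, since this promoter switched the reporter on in a part of the MECs. Dead cells and cells carrying CD45, Ter119 or CD31 were gated out. RNA was amplified from small inputs and hybridised to Illumina WG-6 version 2 arrays. The labels do not say that samples came from separate animals, so each p-value below measures the spread between these samples.

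The luminal layer of the mammary gland holds cells with the receptors for estrogen, progesterone and prolactin, which sense hormones and signal to their neighbours by secreted factors. It also holds receptor-poor progenitor and alveolar cells, which carry the secretory program that ends in milk. Amphiregulin, the product of Areg, is the best known of the secreted factors: it is induced through the estrogen receptor and acts on EGF receptors in other cells during ductal growth at puberty.

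The arrays fell into sets by sample number, Samples 1 to 12 and Samples 13 to 34, which the labels do not name. The first set held 4 GFP+ and 4 GFP- arrays of the luminal gate and the second held 5 and 6, so the set was a term of the model. A share of 34.5 to 46.7% of probes was detected above background on 18 of the 19 arrays. GFP+ replicate 22 stood apart, with 26.3% detected and a median correlation of 0.767 with the other luminal-gated arrays, against 0.845 to 0.894 for the rest, and counts are given below with and without it. The sorted cells carried luminal transcripts, as 8 of 10 luminal markers were detected on all 19 arrays, and their summed log2 level was 14.5 to 15.2 in GFP+ cells and 14.5 to 15.3 in GFP- cells. Summed basal markers lay at 10.6 to 12.2 in GFP+ cells and 10.1 to 11.5 in GFP- cells, and none of the 10 was called. Defining markers of lymphoid cells (Ptprc, Cd3e), endothelium (Emcn, Tek) and adipocytes (Plin1, Cidec) were detected on none of the 19 arrays. The adipocyte marker Fabp4 was called lower in GFP+ cells (-2.11, or -1.04 without background correction), and the summed level of adipocyte markers was 6.80 to 8.16 in GFP+ cells against 7.08 to 9.06 in GFP- cells. Reporter transcripts followed the sort: the eGFP probe lay at 10.39 to 11.70 (median 11.13) on the GFP+ arrays and at 4.55 to 5.10 (median 4.69) on the GFP- arrays, where it was above background on 1 of 10. Since GFP chose the groups, this is a check of the labels and not a result.

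Most of what separated the groups was lower in the GFP+ cells. Levels are log2 normalized signals of 1 probe, differences are GFP+ minus GFP- on that scale, and a probe or gene is called, and said to rise or fall, when its limma p adjusted over all probes tested is below 0.05. Of 31919 probes tested, 526 (1.65%) were called, 155 higher (0.486%) and 371 lower (1.16%) in GFP+ cells. With 1 probe for each of 15131 genes, 352 genes (2.33%) were called, of which 90 rose (0.595%) and 262 fell (1.73%). Changes of over 4-fold were found for 69 genes that fell and for 3 that rose, the eGFP reporter among these 3. The median difference was -1.48 over the called genes that fell and 1.07 over those that rose. Of the 262 genes that fell, 237 were detected on all 10 GFP- arrays and 116 on all 9 GFP+ arrays, and 13 were detected on no GFP+ array. The levels of the groups did not overlap for 67 genes (0.443%), 66 of them called, 59 lower and 7 higher. Without replicate 22, 111 genes were called higher and 277 lower. In RNA pooled from many cells, fewer cells of a type and less RNA per cell cannot be told apart. Where GFP+ signal lay near background, the size of a log2 difference depended on the background correction: without it the difference was smaller by over 1.5 times for 164 of the 352 genes, and 330 of them were still called. A gene stands for its tested probe of highest mean. Of 119 other tested probes of 67 called genes named here, 32 were called, all in the same direction, and of the 87 that were not, 47 were detected on fewer than 10 of the 19 arrays.

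**Figure D1:**
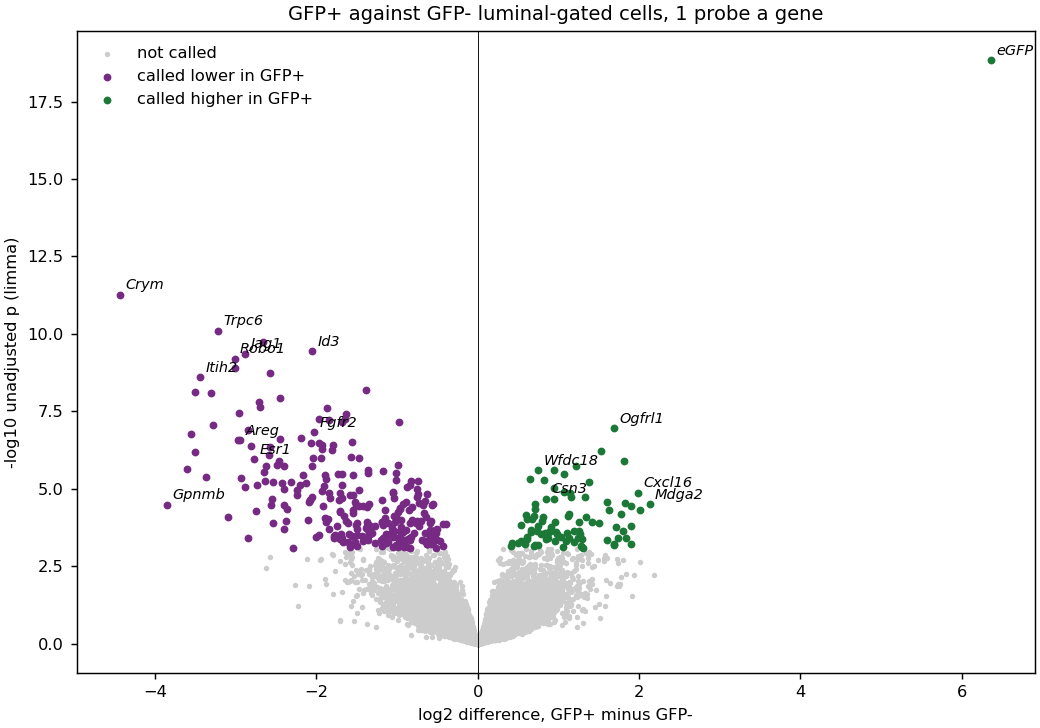
Each point is 1 of the 15131 genes tested, with the log2 difference (GFP+ minus GFP-) on the horizontal axis and -log10 of the unadjusted limma p on the vertical axis. The 262 genes called lower reach further from 0 than the 90 called higher, apart from the eGFP reporter at 6.36.

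Receptors for ovarian hormones and prolactin were among the genes that fell. Esr1, the estrogen receptor, lay at 4.79 to 8.37 (median 7.18) in GFP+ cells and at 8.78 to 10.47 (median 9.50) in GFP- cells, a difference of -2.78 (SE 0.39, adjusted p = 0.000512). Prlr, the prolactin receptor, lay at 4.95 to 8.49 (median 7.57) against 9.53 to 10.53 (median 9.80), a difference of -2.65 (SE 0.40, adjusted p = 0.000979). For both genes the highest GFP+ array lay below the lowest GFP- array. Another Esr1 probe fell by 2.79, and those at -0.25 and -0.09 were near background and not called. Pgr, the progesterone receptor, lay at 4.51 to 6.51 (median 4.79) against 5.47 to 8.43 (median 6.77), fell by 1.91 (SE 0.31, adjusted p = 0.00201) and overlapped between the groups. It was detected on 4 of 9 GFP+ arrays and on all 10 GFP- arrays. Esrrg, an orphan receptor related to the estrogen receptors, fell by 1.72 (SE 0.30, adjusted p = 0.00445). Without background correction Pgr and Esrrg fell by 0.88 and 0.78 and were still called. The other 7 of the 11 receptors tested were not called, among them the growth hormone receptor Ghr (-0.10), the glucocorticoid receptor Nr3c1 (0.06) and the vitamin D receptor Vdr (1.06, SE 0.45). Thus 4 of 11 receptors fell (36.4%, against 1.73% of all genes) and none rose. Their median was -0.10, while the median over all genes tested was -0.001.

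Genes known from hormone-sensing luminal cells fell as well. Of 18 such genes, 11 fell (61.1%, against 1.73% of all genes), Prlr of the receptors above among them, and none rose. The median difference was -1.67, and without replicate 22 the counts were also 11 and 0. This list, like the others used here, was drawn up with earlier results of these data known. It also in part names genes the study chose from these samples. List counts are therefore not independent evidence of direction. The shares of all genes set beside list counts were not matched for level. The median level was 6.59 in this list and 5.69 over all genes tested. Foxa1, a forkhead factor that opens chromatin for the estrogen receptor, was above background on 1 of 9 GFP+ arrays and 9 of 10 GFP- arrays and fell by 1.57 (SE 0.22, adjusted p = 0.000474), or by 0.62 without background correction. Tox3, an HMG-box factor, lay at 4.36 to 6.11 (median 4.64) against 6.37 to 9.30 (median 7.55), a difference of -2.85 (adjusted p = 0.000123), or -1.39 without background correction. Myb, a transcription factor whose human form is regulated through the estrogen receptor, lay at 4.91 to 7.85 (median 6.37) against 8.06 to 10.03 (median 9.53), a difference of -2.98 (adjusted p = 0.00021), or -1.97 without background correction. Neither Tox3 nor Myb overlapped between the groups. Other Myb probes gave -1.88 and 0.23 and were not called. Stc2, a secreted stanniocalcin, fell by 1.93 (adjusted p = 0.00031), Dnajc12, a co-chaperone above background on 4 of 9 GFP+ arrays, by 2.88 (adjusted p = 0.00214), or by 1.53 without background correction, and Ly6a, which encodes the surface antigen Sca-1, by 1.77 (adjusted p = 0.0264). Gata3 (-0.29), Cited1 (-0.91, adjusted p = 0.091), Tbx3 (-1.17, SE 0.51), Wnt4 (-0.40) and Tnfsf11 (-0.35), a progesterone target that encodes RANKL, were not called. Greb1 and Prom1 lay at 0.09 and 0.04 with levels near background.

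Among genes of secreted ligands Areg, Epgn and Inhba fell, and of the others described below some fell and some rose. The region around the start site is shown for Areg and for Inhba, the subunit of activin A, because both fell with no overlap between groups and each has 1 annotated promoter in the table used. The sequences are from RefSeq (GRCm38.p6), from upstream of the annotated start into the transcript, at chr5:91139349-91139648 for Areg and chr13:16011601-16011900 for Inhba, both on the plus strand. Capitals mark exact matches to the cyclic AMP response element (CRE) TGACGTCA and to the TATA box TATAAA.
Areg: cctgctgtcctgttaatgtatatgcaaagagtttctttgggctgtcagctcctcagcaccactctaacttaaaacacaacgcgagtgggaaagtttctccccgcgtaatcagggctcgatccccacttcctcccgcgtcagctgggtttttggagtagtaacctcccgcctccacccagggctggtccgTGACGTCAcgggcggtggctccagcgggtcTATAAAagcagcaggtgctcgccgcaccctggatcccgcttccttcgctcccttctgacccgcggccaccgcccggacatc
Inhba: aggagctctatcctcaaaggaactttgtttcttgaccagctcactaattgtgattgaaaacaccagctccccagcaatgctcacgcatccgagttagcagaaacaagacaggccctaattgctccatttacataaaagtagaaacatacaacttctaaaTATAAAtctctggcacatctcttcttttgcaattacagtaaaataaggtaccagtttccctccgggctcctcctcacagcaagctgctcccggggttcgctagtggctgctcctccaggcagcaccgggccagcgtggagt
In the Areg promoter the CRE match began 61 bases and the TATA match 31 bases before the start. The Inhba promoter held a TATA match 91 bases before the start and no CRE match. Searched on both strands, the CRE was in 2.64% of the 15159 promoters matched for the genes tested, in 2.42% of the 248 promoters of genes that fell and in 1.23% of the 81 promoters of genes that rose. The TATA motif was in 10% of all promoters, in 9.27% of those of genes that fell and in 8.64% of those of genes that rose. TGTTTAC, a forkhead motif, was in 2.85%, 4.44% and 1.23%. These shares describe letters in a window and were not tested.

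Areg lay at 7.32 to 11.45 (median 10.13) in GFP+ cells and at 11.95 to 13.37 (median 12.89) in GFP- cells, a difference of -2.95 (SE 0.37, adjusted p = 0.00021). Every GFP+ array was below every GFP- array, and the transcript was above background on all 19. Epgn, which encodes the EGF family ligand epigen, lay at 4.59 to 6.87 (median 5.57) against 6.89 to 8.87 (median 7.55) and fell by 1.90 (SE 0.29, adjusted p = 0.00113), or by 0.98 without background correction. These were 2 of the 12 EGF family ligands and receptors tested. Hbegf (0.71, SE 0.31), Nrg1 (1.04, SE 0.41) and the receptor genes Egfr (0.77, SE 0.58), Erbb2 (-0.26, SE 0.32) and Erbb3 (-0.79, SE 0.32) were not called.

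**Figure D2:**
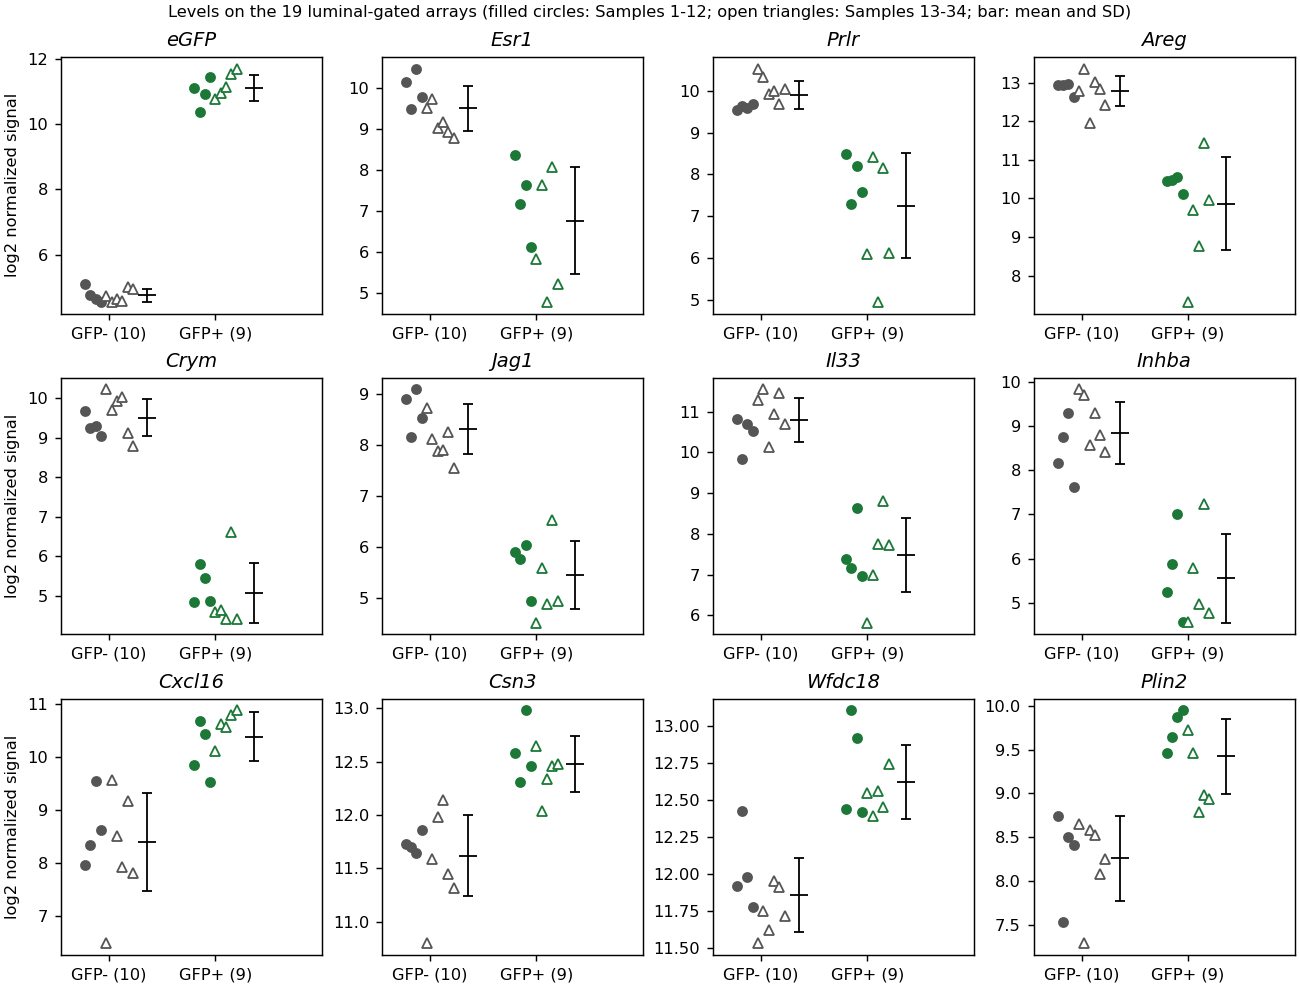
Log2 normalized signal of 12 genes on each of the 19 arrays, with filled circles for Samples 1 to 12, open triangles for Samples 13 to 34, and bars for the mean and SD of each group. Esr1, Prlr, Areg, Crym, Jag1, Il33 and Inhba lie lower on every GFP+ array than on any GFP- array, Plin2 lies higher on every GFP+ array, and Cxcl16, Csn3 and Wfdc18 overlap.

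In the other signalling pathways listed, 1 to 3 members were called. These were 6.67% (Notch) to 21.4% (cyclic AMP) of a list, against 2.33% of all genes. Inhba lay at 4.56 to 7.25 (median 5.23) against 7.63 to 9.84 (median 8.78), a difference of -3.29 (SE 0.38, adjusted p = 8.89e-05), or -1.92 without background correction. Of 16 TGF-beta, activin and BMP genes, 3 fell and none rose (median 0.13): Inhba, the receptor gene Tgfbr2 and Id3, an inhibitor of helix-loop-helix factors. Id3 lay at 4.44 to 5.93 (median 5.21) against 6.85 to 7.62 (median 7.27), a difference of -2.06 (SE 0.17, adjusted p = 1.93e-06), or -0.92 without background correction. Tgfbr2 fell by 1.12 (adjusted p = 0.0263), but its adjusted p reached 0.0556 when 1 array was left out and missed the threshold without replicate 2, 5, 7, 12, 19 or 34. Jag1, a Notch ligand, was the only member called of 15 Notch pathway genes (median -0.003): it lay at 4.51 to 6.52 (median 5.57) against 7.55 to 9.09 (median 8.20), a difference of -2.88 (SE 0.24, adjusted p = 2.01e-06), or -1.57 without background correction. Notch1 (0.09), Notch3 (-0.20) and the target genes Hes1 (0.00) and Hey1 (0.47) were not called.

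Fgfr2, a receptor for FGF7 and FGF10, was the only gene called of 10 FGF genes: it lay at 8.22 to 10.52 (median 9.75) against 10.97 to 11.87 (median 11.73), a difference of -2.03 (SE 0.25, adjusted p = 0.000134) with no overlap. Fgfr1 (0.69, SE 0.22) was not called. Robo1, a receptor for Slit proteins, lay at 4.42 to 6.11 (median 5.61) against 7.80 to 9.33 (median 8.34), a difference of -3.01 (SE 0.26, adjusted p = 2.56e-06), or -1.67 without background correction. Other Robo1 probes gave -0.77 and -0.05 and were not called. Gli3, a Hedgehog effector, fell by 1.51 (SE 0.28, adjusted p = 0.00572), or by 0.65 without background correction, and was the only gene called of 9 in its pathway. Among 17 Wnt genes 2 fell (Wnt5a, Wnt7b) and 1 rose (Wnt5b, 1.26, or 0.81 without background correction), and each of the 3 lost its call when single arrays were left out. The Wnt5a probe of highest mean differed by -2.85 (SE 0.65, adjusted p = 0.0299) and missed the threshold without replicate 2, 4, 5, 7, 8, 12, 22, 26 or 34 (adjusted p up to 0.0641), while another Wnt5a probe gave -3.07 (adjusted p = 4.39e-05). Wnt5b missed the threshold without replicate 2, 7, 12 or 16 (adjusted p up to 0.0541), and Wnt7b (-0.88) without replicate 2, 5, 6, 7, 8, 10, 12, 14, 16, 18, 19, 23, 27 or 34 (adjusted p up to 0.0941).

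Crym, which encodes mu-crystallin, a protein that binds thyroid hormone in the cytosol, had a large fall. It lay at 4.40 to 6.62 (median 4.84) in GFP+ cells, above background on 3 of 9 arrays, and at 8.80 to 10.22 (median 9.48) in GFP- cells, a difference of -4.44 (SE 0.28, adjusted p = 8.58e-08). The groups did not overlap. As the GFP+ level was near background, the size of this difference rested on the correction: without it Crym fell by 2.68, less than Areg (-2.70). Of 14 genes for thyroid hormone and retinoid binding only Crabp2, a retinoic acid carrier, was also called, at 0.94 (SE 0.14, adjusted p = 0.000873). Gpnmb, a membrane glycoprotein also called osteoactivin, was detected on none of the 9 GFP+ arrays and on 8 of 10 GFP- arrays, where it lay at 4.48 to 10.64 (median 9.25). On the background-corrected scale its signal was at least 10.0-fold lower in GFP+ cells, taken against the lowest signal above background on each array (adjusted p = 0.00567). The size again rested on the correction: the difference was -3.85, or -2.25 without background correction. Other Gpnmb probes gave -0.22 and -0.33, were detected on 1 and 4 of the GFP- arrays and were not called.

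Some genes of luminal progenitors and of the milk program rose, by 0.53 to 1.15. Of 23 such genes 7 rose (30.4%, against 0.595% of all genes), none fell and 16 were not called. The median was 0.71, the counts were the same without replicate 22, and the caution given for the hormone-sensing list applies to this one. Its members were bright, with a median level of 9.59 against 5.69 over all genes tested. Sox9, a factor of luminal progenitors that the list does not hold, fell, as given below. Csn3, which encodes kappa casein, lay at 12.04 to 12.98 (median 12.46) in GFP+ cells and at 10.80 to 12.14 (median 11.67) in GFP- cells, a difference of 0.85 (SE 0.15, adjusted p = 0.00414). Wfdc18, a secreted whey acidic protein family member, lay at 12.39 to 13.10 (median 12.55) against 11.53 to 12.43 (median 11.84), a difference of 0.75 (SE 0.11, adjusted p = 0.000883). Both overlapped by a narrow margin. Plin2, which coats lipid droplets, lay at 8.79 to 9.95 (median 9.46) against 7.29 to 8.74 (median 8.46), a difference of 1.15 (SE 0.20, adjusted p = 0.00386) with no overlap. Trf (transferrin, 0.74, adjusted p = 0.0164), Mfge8 (the milk fat globule protein lactadherin, 0.53, adjusted p = 0.0162) and Cd14 (a lipopolysaccharide co-receptor used as a luminal progenitor marker, 0.91, adjusted p = 0.0175) also rose. Ltf, lactoferrin, rose by 0.87 (adjusted p = 0.0307) but missed the threshold without replicate 2, 4, 7, 8, 10, 16, 18, 23, 27 or 34, with an adjusted p up to 0.0629. Kit (0.71, SE 0.32), Elf5 (0.46, SE 0.25), Aldh1a3 (0.56, SE 0.20), Itga2 (1.44, SE 0.42), Lalba (1.38, SE 0.36), Csn2 (0.96, SE 0.69) and Wap (1.16, SE 0.57) were not called. Other uncalled members showed no rise, namely Itgb3 (0.01, SE 0.47), which encodes the luminal progenitor marker CD61, and Stat5a (-0.05, SE 0.26). Mean Itgb3 levels were low in both groups (5.41 in GFP+ and 5.42 in GFP- cells). In the whole list 22 differences were positive and 1 was negative.

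**Figure D3:**
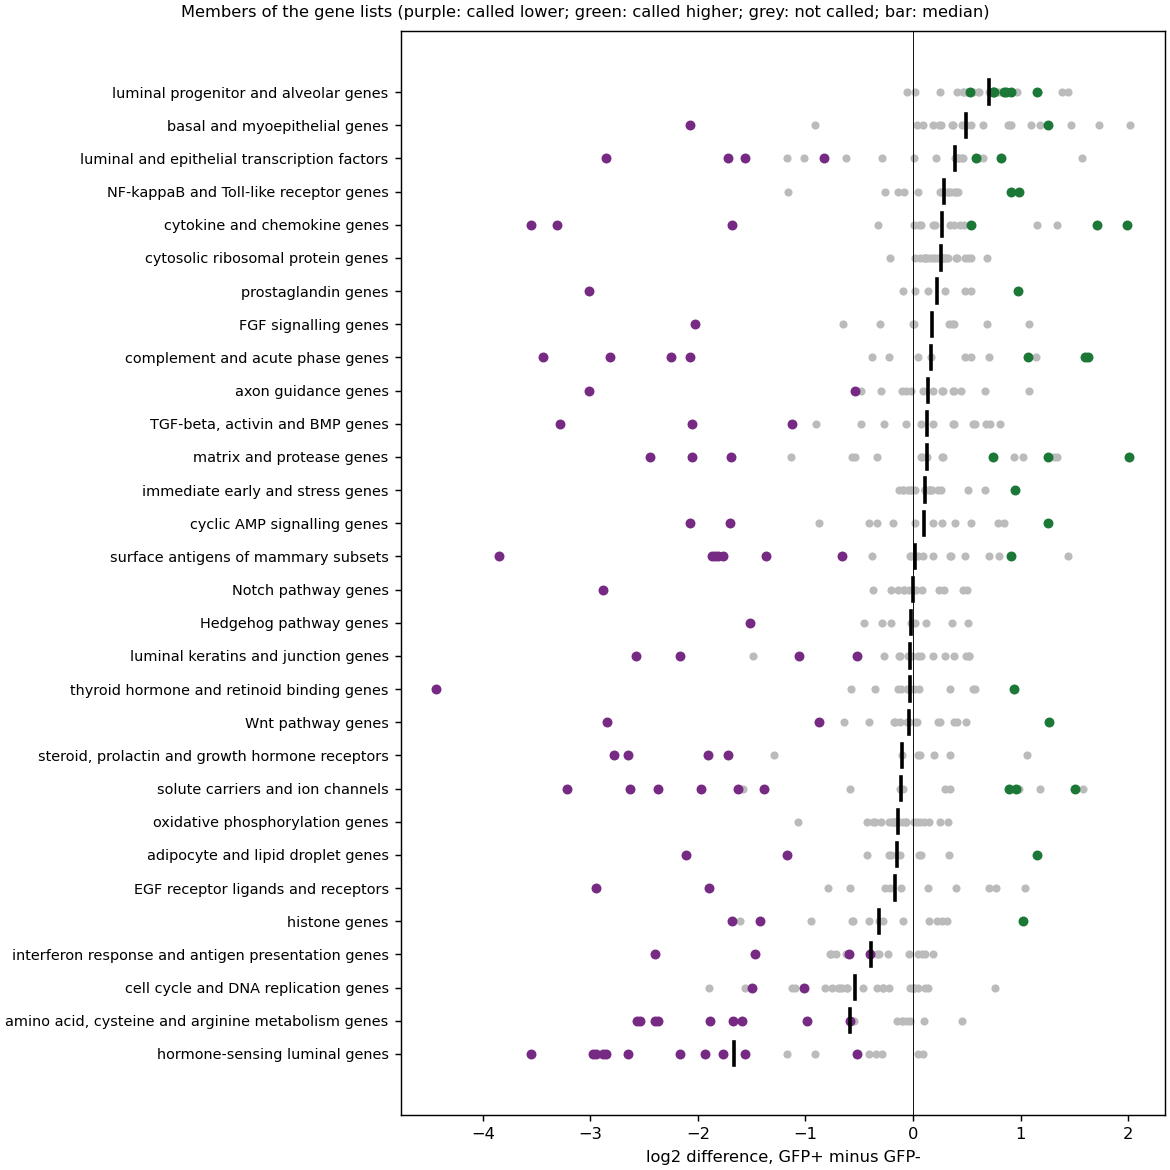
Log2 difference (GFP+ minus GFP-) of each tested member of the 30 gene lists, in purple where called lower, in green where called higher and in grey otherwise, with a bar at the list median. The hormone-sensing list has its median at -1.67 with 11 of 18 members called lower, and the progenitor and alveolar list has its median at 0.71 with 7 of 23 called higher.

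Cytokine and complement genes went both ways. Il33, an alarmin of the IL-1 family, lay at 5.82 to 8.80 (median 7.39) against 9.84 to 11.54 (median 10.75), a difference of -3.31 (SE 0.33, adjusted p = 1.86e-05) with no overlap. Cxcl15, a chemokine found in mouse and known from lung, lay at 4.40 to 6.32 (median 4.73) against 6.07 to 9.78 (median 8.85), a difference of -3.55 (SE 0.43, adjusted p = 0.00015), or -2.05 without background correction. Il1r1, the receptor for IL-1, fell by 1.68 (adjusted p = 0.00407), or by 1.10 without background correction. In contrast Cxcl16, a membrane-bound chemokine, lay at 9.53 to 10.88 (median 10.56) in GFP+ cells and at 6.49 to 9.57 (median 8.43) in GFP- cells, a difference of 1.99 (SE 0.34, adjusted p = 0.00298). Another Cxcl16 probe gave 0.72 and was not called. Lif, a cytokine that acts through STAT3, rose by 1.71 (adjusted p = 0.0175), while other Lif probes gave 0.80 to 0.95 and were not called. Of 18 cytokine genes 3 fell and 3 rose in all (33.3% called, against 2.33% of all genes). The third that rose, Cxcl1 (0.54, adjusted p = 0.036), missed the threshold without any 1 of 13 arrays, namely replicates 2, 4, 6, 8, 10, 14, 16, 18, 19, 22, 23, 31 and 34, with an adjusted p up to 0.071.

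Of 15 complement and acute phase genes 4 fell and 3 rose (46.7% called, against 2.33% of all genes). The fibrinogen chains Fgb (-2.82, adjusted p = 0.000269) and Fgg (-2.25, adjusted p = 0.00257), Itih2 (-3.44, adjusted p = 7.43e-06), an inter-alpha-trypsin inhibitor chain, and Proc (-2.07, adjusted p = 0.000239), protein C of the clotting cascade, fell. Itih2 and Fgb did not overlap between groups. Without background correction Itih2 and Proc fell by 1.92 and 0.90. Cp, ceruloplasmin, which carries copper, rose by 1.07 (adjusted p = 0.00106). C4a and C4b rose by 1.63 (adjusted p = 0.00723) and 1.60 (adjusted p = 0.00487), but these genes are near-identical copies whose probes may read each other. Of 17 interferon response and antigen presentation genes 4 fell (23.5%, against 1.73% of all genes) and none rose (median -0.39). Among the 4 were Psmb9, an immunoproteasome subunit (-1.47, adjusted p = 0.0058), H2-K1, a class I heavy chain (-0.40, adjusted p = 0.0149), and Ido1, which degrades tryptophan (-2.40, adjusted p = 0.0197, or -1.48 without background correction). Of 17 NF-kappaB and Toll-like receptor genes 2 rose (11.8%, against 0.595% of all genes), Cd14 and Tlr2 (0.99, adjusted p = 0.0256). Tlr2 differed by 0.46 without background correction and missed the threshold without replicate 2, 10 or 34 (adjusted p up to 0.0577).

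Transport and amino acid genes held further large falls. Of 17 genes of amino acid, cysteine and arginine metabolism 9 fell (52.9%, against 1.73% of all genes) and none rose (median -0.59), or 7 and 1 without replicate 22. Cdo1, which oxidises cysteine, lay at 4.36 to 9.71 (median 8.47) against 10.10 to 11.46 (median 10.35), a difference of -2.57 (SE 0.47, adjusted p = 0.00571). Its lowest GFP+ value was that of replicate 22. Arg2, the mitochondrial arginase, fell by 2.54 (adjusted p = 0.00167), Aldh3a2, a fatty aldehyde dehydrogenase, by 1.88 (adjusted p = 0.0137) and Tph1, the enzyme that limits serotonin synthesis, by 2.37 (adjusted p = 0.0137). Without background correction Arg2 and Tph1 fell by 1.46 and 1.17.

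Of 18 solute carriers and ion channels 6 fell and 3 rose (50% called, against 2.33% of all genes). Slc12a2, the basolateral sodium, potassium and chloride cotransporter, lay at 12.18 to 13.19 (median 12.91) against 13.68 to 14.52 (median 14.30), a difference of -1.39 (SE 0.14, adjusted p = 1.76e-05) at high levels in both groups. Trpc6, a cation channel, lay at 4.32 to 6.11 (median 4.75) against 7.53 to 9.33 (median 8.05), a difference of -3.22 (SE 0.24, adjusted p = 8.31e-07), or -1.67 without background correction. The groups did not overlap for either gene. Slc1a1, a glutamate and cysteine carrier, rose by 1.51 (SE 0.31, adjusted p = 0.0146), and Scnn1b, a subunit of the epithelial sodium channel, by 0.96 (adjusted p = 0.014). Slco2a1, which takes up prostaglandins, lay at 4.69 to 7.68 (median 5.41) against 7.80 to 9.55 (median 8.63), a difference of -3.01 (SE 0.27, adjusted p = 4.44e-06), or -1.76 without background correction. Among cyclic AMP genes Prkar2b, a regulatory subunit of protein kinase A, fell by 1.70 (adjusted p = 0.00812) and Pde4a, which degrades cyclic AMP, rose by 1.26 (adjusted p = 0.0141).

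Of 21 surface antigens of mammary cell subsets 7 fell and 1 rose (38.1%, against 2.33% of all genes), with a median of 0.01. The study picked several of them for staining from these same arrays, among them Alcam, Cd164, Sdc1 and Cd14, so this count is not independent evidence either. Alcam, an adhesion molecule, lay at 6.80 to 9.15 (median 8.14) against 8.64 to 10.64 (median 9.75), a difference of -1.81 (SE 0.24, adjusted p = 0.000335). Cd164, a sialomucin, lay at 9.83 to 12.04 (median 11.43) against 12.53 to 13.04 (median 12.74), a difference of -1.37 (SE 0.21, adjusted p = 0.00104). Cd86, a co-stimulatory ligand, fell by 1.87 (adjusted p = 3.68e-05) and the heparan sulfate proteoglycan gene Sdc1 by 1.84 (adjusted p = 0.00302), or by 0.77 and 0.86 without background correction. The groups overlapped for Alcam and Sdc1 and did not for Cd164 and Cd86. Other Sdc1 probes gave -0.17 and -0.02 and were not called. Of the antigens that set the gate, Cd24a fell by 0.66 (SE 0.13, adjusted p = 0.00852), while Itgb1, which encodes CD29, lay at 0.18 (SE 0.14) and Epcam at -0.02 (SE 0.09), neither called.

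Among 19 keratin and junction genes 4 fell (21.1%, against 1.73% of all genes), including Cldn6 (-2.58, adjusted p = 5.95e-06), Cldn10 (-2.16, adjusted p = 0.00115) and Krt7 (-1.06, adjusted p = 0.0191). Without background correction Cldn6 fell by 1.26. Of 19 matrix and protease genes 3 fell and 3 rose (31.6% called, against 2.33% of all genes). Col8a1, a short-chain collagen (-2.45, adjusted p = 2.45e-05), Tgm2, a transglutaminase (-1.69, adjusted p = 7.74e-05), and Mmp14, a membrane-anchored collagenase (-2.06, adjusted p = 0.00386, or -1.23 without background correction), fell. Those that rose included Thbs1, thrombospondin (2.01, adjusted p = 0.00723), and Lamb1, a laminin chain (1.26, adjusted p = 0.0218). Of 23 basal and myoepithelial genes, 1 rose (Lamb1), 1 fell (Cav1, the caveolae protein, -2.07, adjusted p = 0.00445, or -1.14 without background correction) and the median was 0.50. The share called was 8.70%, against 2.33% of all genes. Of the 23 differences 21 were positive and 2 negative, and 12 genes had an unadjusted limma p under 0.05. Uncalled members of that list reached 2.02 (Oxtr, SE 0.57, adjusted p = 0.0936) and 1.73 (Myh11, SE 0.47, adjusted p = 0.081), and the basal marker sum given above was also higher in GFP+ cells by its range. What part basal transcripts had in other differences was not tested.

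Of 21 luminal and epithelial transcription factors 4 fell (Foxa1, Tox3 and Esrrg, given above, and Sox9) and 2 rose (Tfap2c and Klf7), with a median of 0.39. The share called was 28.6%, against 2.33% of all genes. Sox9 lay at 11.09 to 12.83 (median 12.10) against 12.53 to 13.48 (median 12.77), a difference of -0.82 (SE 0.13, adjusted p = 0.0016), and Klf7 rose by 0.82 (SE 0.13, adjusted p = 0.00148). Of 26 cell cycle genes 2 fell (7.69%, against 1.73% of all genes) and none rose, with a median of -0.54: Mki67 (-1.49, SE 0.31, adjusted p = 0.0142), which encodes the proliferation antigen Ki-67, and Cdkn2d (-1.01, SE 0.15, adjusted p = 0.00102), an inhibitor of cyclin D kinases. Of the 26 differences 19 were negative and 7 positive. Uncalled members with negative values included Plk1 (-1.89, SE 0.64), Cdc20 (-1.57, SE 0.50) and Rrm2 (-1.10, SE 0.33), and Ccnd1 lay at 0.01. H2bc4, a histone H2B gene, fell by 1.68 (adjusted p = 0.00106) and H1f2, a linker histone gene, by 1.42 (adjusted p = 0.0058), while H2bc14, another H2B gene, rose by 1.03 (adjusted p = 0.0294), the 3 called of 15 histone genes (20%, against 2.33% of all genes). None of 24 ribosomal protein genes was called by limma, though 23 of the 24 differences were positive (median 0.26). Of these genes 11 had an unadjusted p under 0.05, 2 passed the methods' t-test and 4 were called in the authors' processed values. None of 22 oxidative phosphorylation genes was called by limma, and 15 differences were negative and 7 positive (median -0.14). Of these genes 4 had an unadjusted p under 0.05, and 0 passed the t-test.

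Several genes of largest rise lay outside the lists. Mdga2, a synaptic adhesion molecule, lay at 7.25 to 8.87 (median 8.11) against 4.75 to 8.30 (median 5.84), a difference of 2.13 (SE 0.39, adjusted p = 0.00543). Other Mdga2 probes lay between -0.07 and 0.13, near background. Afap1, an actin filament-associated protein (1.90, adjusted p = 0.00584), Fam20c, a kinase of secreted proteins including caseins (1.83, adjusted p = 0.00534), and Taf4b, which belongs to the TFIID complex of the basal transcription machinery (1.81, adjusted p = 0.000567), followed. Other Afap1 probes gave -0.12 and 0.24 and were not called. Taf4b was detected on 9 of 9 GFP+ arrays and 3 of 10 GFP- arrays, with no overlap. Without background correction the differences of Mdga2, Afap1, Fam20c and Taf4b were 1.14, 1.02, 0.93 and 0.76. Wfdc3, another whey acidic protein family gene, lay at 8.87 to 10.17 (median 9.17) against 7.18 to 8.67 (median 7.66), a difference of 1.53 (SE 0.20, adjusted p = 0.000345), again with no overlap.

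The fall of the leading genes was seen in each array set on its own. In Samples 1 to 12 and in Samples 13 to 34 the difference was -4.07 and -4.70 for Crym, -2.64 and -2.88 for Esr1, -2.47 and -3.30 for Areg, -3.01 and -2.79 for Jag1, and -2.80 and -3.64 for Inhba. Among genes that rose it was 0.85 in both sets for Csn3, 1.43 and 0.94 for Plin2, and 0.70 and 0.79 for Wfdc18. When each set was fitted alone, Crym and Jag1 were called by limma in both. Esr1 and Areg were not called in Samples 13 to 34 (limma adjusted p = 0.098 and 0.0804). Inhba was not called in Samples 1 to 12 (limma adjusted p = 0.0822). Fitted on its own set, each result can be read in samples that had no part in choosing it. Of 274 probes called in Samples 1 to 12, 270 were tested in Samples 13 to 34, where 205 (75.9%) had the same sign, compared with 55.9% of all probes tested in both. Of those lower in GFP+ cells 137 of 163 kept their sign, with a median of -1.32 in the first set and -0.80 in the second. Of those higher in GFP+ cells 68 of 107 did, with a median of 1.21 in the first set and 0.20 in the second. In the other direction 66 of 70 probes (94.3%) had the same sign, and 22 probes passed in both sets. The test of a different GFP effect between sets called 13 probes (0.0407%), none of which stood for a called gene, and 0 probes without replicate 22, where 2299 had an unadjusted p under 0.05.

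**Figure D4:**
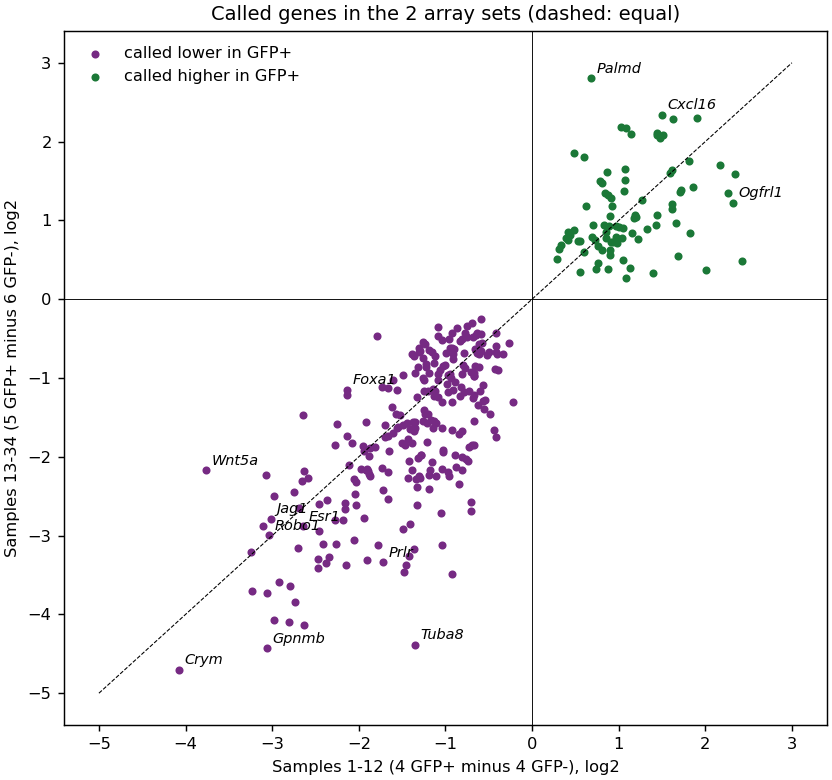
Log2 difference (GFP+ minus GFP-) in Samples 13 to 34 against that in Samples 1 to 12 for the called genes other than eGFP, with a dashed line of equal values. All of the plotted genes have the same sign in both sets, which their choice from the pooled arrays favours, and Crym lies furthest down at -4.07 and -4.70.

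Without the set term 329 probes were called, all of them among the 526. The genes called only with the term numbered 119, of which 43 rose and 76 fell. Ogfrl1, a gene related to the opioid growth factor receptor, was one: it lay at 9.16 to 10.98 (median 10.08) against 6.64 to 9.88 (median 9.09), a difference of 1.69 (SE 0.20) with an adjusted p of 0.000107 with the term and 0.14 without it. Its difference was 2.32 in the first set and 1.22 in the second. Lif was another, with an adjusted p of 0.0175 with the term and 0.13 without it.

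The same sort was made in the CD24+CD29+ gate, where Gpnmb, Alcam, Inhba and Epgn had GFP differences of a size like those in the luminal gate by value, while Jag1, Robo1 and Csn3 did not. The test of the difference between gates called 102 of 35870 probes (0.284%), 32 with a more positive and 70 with a more negative GFP difference in the luminal gate. Of the 352 called genes 63 were called there too, 54 that fell and 9 that rose. GFP- arrays of the CD24+CD29+ gate were all in the second set, the only one with all 4 groups, and within it 39 probes were called. Crym differed by -1.10 in the CD24+CD29+ gate and was not called there, with a gate difference of -3.36 (adjusted p = 0.000839). Its mean levels in that gate were 4.61 in GFP+ and 5.73 in GFP- cells. The GFP+ level was thus near background, and a fall much larger than this could not be measured there. Jag1, Robo1 and Fgfr2 differed by -0.10, 0.14 and -0.05 in that gate, at mean levels of 9.47 to 11.17, and the gate difference was called for each. Prlr, whose gate difference was also called, lay near background in both groups of that gate (4.88 and 4.91), so that no fall could be measured there. Csn3 rose in the luminal gate and lay at -1.14 in the other (gate difference 1.99, adjusted p = 0.0106). The largest gate differences among named genes were those of Slc7a2, an arginine carrier (-4.48, adjusted p = 0.000839), and Slc1a1 (3.86, adjusted p = 0.0448).

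For other genes no difference between gates was called, and the 95% intervals show what the arrays leave possible. Epgn differed by -1.85 in the CD24+CD29+ gate, and its gate difference was -0.07 with an interval of -1.26 to 1.13. Inhba differed by -2.56 there (limma adjusted p = 0.0421), with a gate difference of -0.73 and an interval of -2.16 to 0.69. For Areg the value in that gate was -1.73 and not called (limma adjusted p = 0.432), with a gate difference of -1.22 and an interval of -2.79 to 0.35. Gpnmb lay at -3.57 and was not called there (SE 0.94, limma adjusted p = 0.184), with a gate difference of -0.30 and an interval of -2.79 to 2.19. Alcam lay at -2.78, a larger fall than in the luminal gate by value, with an interval of -0.04 to 1.96 for the difference of 0.96. These intervals are wide next to the differences themselves, most of all for Gpnmb.

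**Figure D5:**
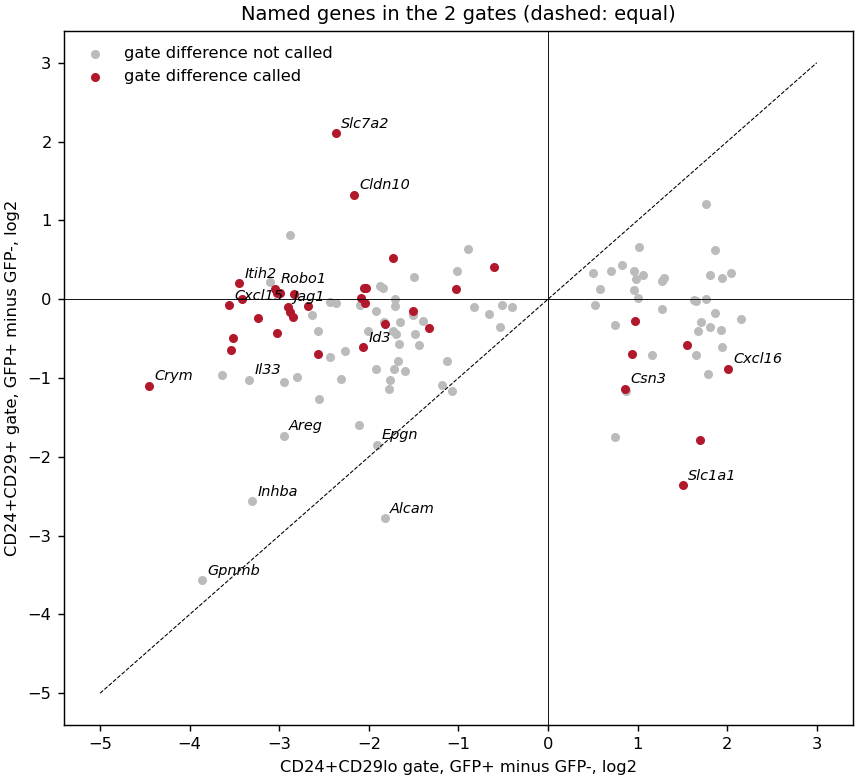
Log2 difference (GFP+ minus GFP-) of the named genes in the CD24+CD29+ gate against that in the CD24+CD29lo gate, in red where the difference between gates was called, with a dashed line of equal values. Jag1 and Robo1 lie near 0 on the CD24+CD29+ axis, and Gpnmb, Epgn and Inhba lie nearer the dashed line.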

How the data were processed

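The 19 arrays were 9 of GFP+ and 10 of GFP- CD24+CD29lo cells, grouped by the labels. The deposited intensity values are probe signals on a linear scale that the authors had neither normalized nor background-subtracted. Beside each signal the deposited detection p-value is given as 1 minus p against negative control beads. A second deposited table holds log2 values processed by the authors, whose methods name quantile normalization and a correction for collection date, and it served as an alternative. The submitters' processing notes name R 2.14.1.

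Signals were background-corrected, quantile-normalized and log2-transformed with neqc of limma 3.58.1 (offset 16) in R 4.3.3. Probes were tested if, in 1 or both groups, their signal exceeded the 20th percentile of the array on 80% of arrays or more. The model had GFP and array set as terms, tests were two-sided and moderated, and p-values were adjusted by the Benjamini-Hochberg method over all probes tested with a threshold of 0.05. The gate comparison was an interaction fitted on all 34 arrays. The fit was first tested on simulated data. A gene detected on no array of a group has a lower bound for its fold on the background-corrected scale, written "at least".

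Of 45281 probes, 34885 carried 1 gene symbol of the platform table, 18 several and 10378 none, of which 44 were named from the study's probe lists, the eGFP probe among them. Promoters were matched by symbol to RefSeq for 12090 of the 15131 genes tested. The 30 gene lists held 524 genes, 491 on the array. Named were the eGFP probe, the 20 largest differences in each direction, up to 8 called members of each list (the 2 brightest members of a list without calls), the 10 largest called only with the set term and the 5 largest gate differences, 130 genes in all. The comparison, the lists and this rule were chosen with earlier results of these data known. Some results are not reported here. Uncalled members of lists are given to show the rest of a list. Alternatives were no set term, each set alone, no background correction, offset 50, the processed values, no filter, a filter on detection, array weights, all 34 arrays normalized together, the methods' t-test and each array left out.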

Additional observations from a re-analysis of the deposited data

Results flagged for a closer look

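Single arrays lay far from the rest of their group for 24 of 262 groups of values tested with Dixon's criterion, where chance gives 1 in 20, or 13.1. Among GFP+ arrays, replicate 22 was lowest for Cdo1 (4.36), Ly6a (5.76), H1f2 (8.43) and Cd164 (9.83) and highest for Nrp1 (4.87). Replicate 34 was lowest for Tlcd4 (4.86) and Mllt1 (4.92) and highest for Fabp4 (7.46). Replicate 12 was lowest for Cxcl1 (13.70) and Tlr2 (5.58), and replicate 16 for Mki67 (6.31). Replicate 23 was highest for Tph1 (7.32) and Pappa (7.11), replicate 2 for Tox3 (6.11) and replicate 4 for Tesc (8.18). Among GFP- arrays, replicate 6 was lowest for Tlcd4 (10.35) and Col8a1 (10.55) and highest for Wfdc18 (12.43) and Fam20c (7.51). Replicate 7 was lowest for Cxcl15 (6.07), and replicate 27 was lowest for Cldn6 (5.65) and highest for Mdga2 (8.30). Replicate 14 was highest for Cdo1 (11.46) and replicate 8 for Taf4b (5.89). Of these genes Nrp1, Tesc, Cxcl1, Tlr2 and Pappa lost their call when some single arrays were left out.

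The GFP difference was called different between the luminal gate and the CD24+CD29+ gate for 38 named genes, by the limma interaction term. Values are the difference in the luminal gate minus that in the other gate, on the log2 scale. Among signalling genes they were -3.18 for Robo1, -2.80 for Jag1, -2.58 for Prlr, -1.99 for Fgfr2 and -1.46 for Id3. Among transcription factors they were -2.91 for Tox3, -2.59 for Myb and -1.36 for Foxa1. Transport and channel genes had -4.48 for Slc7a2, -3.10 for Slco2a1, -3.00 for Trpc6, -0.97 for Slc12a2 and 3.86 for Slc1a1. Junction, surface and membrane genes had -3.49 for Cldn10, -3.41 for Upk3a, -2.11 for Cav1, -1.87 for Cldn6 and -1.50 for Cd86. Immune and plasma protein genes had -3.65 for Itih2, -3.49 for Cxcl15, -2.62 for Fgb, -2.19 for Proc, -1.01 for Ifitm3, 1.63 for Cd14 and 2.89 for Cxcl16. Secretory genes had 1.99 for Csn3 and 2.12 for Wfdc3. The rest were Crym (-3.36), Samd5 (-3.07), Fam43a (-3.02), Gipc2 (-2.89), Dnajc12 (-2.72), Prkar2b (-2.25), Rasgrf1 (-2.17), Cdkn2d (-1.15), Ppp1r15a (1.25), Fscn2 (3.48) and the eGFP reporter (2.85). Foxa1, Tox3, Upk3a, Rasgrf1, Proc, Itih2, Cxcl15, Cd86, Dnajc12, Trpc6 and Prlr had mean levels of 4.45 to 4.99, near background, in both groups of the CD24+CD29+ gate. Fgb, Cldn6, Gipc2, Myb, Wfdc3 and Cd14 had means of 4.65 to 5.40 there. For those of these genes that fell in the luminal gate little or no fall could be measured in the other, and their values restate the luminal difference. Crym had means of 4.61 in GFP+ and 5.73 in GFP- cells of the CD24+CD29+ gate, so that only a small fall could be measured there. GFP- arrays of the CD24+CD29+ gate came only from Samples 13 to 34.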

How the results depend on the processing

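The 526 calls numbered 329 without the array set term (73 higher), 274 within Samples 1 to 12 (165 lower), 70 within Samples 13 to 34 (8 higher, 62 lower) and 1082 with array weights (444 higher, 638 lower). The share of calls that were higher was 29.5%, against 39.8%, 11.4% and 41% for the last 3. Of the 126 named genes called, 33 passed within Samples 1 to 12 and 29 within Samples 13 to 34, where fewer arrays were fitted. Calls over 2-fold numbered 344, against 203 and 67 within the sets, 148 without background correction, 157 with the processed values, 530 with array weights and 140 by the methods' t-test. The other settings gave 465 to 591 calls. Leaving out 1 array gave 412 (without replicate 7) to 583 (without replicate 22) calls, of which 110 to 197 were higher and 302 to 402 lower, 289 to 376 calls over 2-fold and 105 to 119 of the named genes, and 246 of the 352 called genes passed each time. The gate difference called 102 probes and 39 within Samples 13 to 34. The array set difference called 13 probes, 33 without background correction, 53 with the processed values and 0 without replicate 22. No named called gene changed sign in the limma alternatives, and the uncalled Ndufb8 went from 0.06 to -0.16 within Samples 13 to 34. No paired analysis was possible because each replicate number is the number of 1 deposited sample and no 2 groups share one. Where a group is near background, the signal sets a floor under the level, so folds of such genes are less well measured than their direction.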

Other observations

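Called genes outside the lists, chosen after their values were seen, added to several of the groups above. Ptger3, a receptor for prostaglandin E2, lay at 4.57 to 5.94 (median 5.07) in GFP+ cells and at 6.99 to 8.69 (median 7.65) in GFP- cells, a difference of -2.67 (SE 0.21, adjusted p = 1.41e-06) with no overlap, or -1.30 without background correction. Slpi, a secreted protease inhibitor, fell by 1.70 (adjusted p = 0.00302), Wfdc2, a whey acidic protein family gene, by 1.91 (adjusted p = 0.0058), S100a14 by 1.97 (adjusted p = 6.74e-05) and Sprr1a, a cornified envelope precursor, by 2.74 (adjusted p = 0.00193). Wfdc2 and Wfdc18, of the same family, thus went opposite ways. Piezo2, a channel opened by mechanical force, lay at 6.04 to 8.38 (median 7.00) against 7.65 to 9.85 (median 9.48) and fell by 2.19 (adjusted p = 0.0002). H19, an imprinted noncoding RNA, was above background on 1 of 9 GFP+ arrays and on all 10 GFP- arrays and fell by 2.31 (adjusted p = 0.00168), or by 1.07 without background correction.

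Further genes of mitosis fell beside Mki67, namely Cenpf, a kinetochore protein (-1.35, adjusted p = 0.00544), Kif15, a spindle motor (-1.50, adjusted p = 0.0194), Cep55, which acts in abscission (-1.73, adjusted p = 0.00109), and Ect2, which acts in cytokinesis (-0.84, adjusted p = 0.0144). Each was close to background in GFP+ cells, with medians of 5.58, 4.83, 5.15 and 4.94. Among genes that rose, Nfe2l2, the regulator of antioxidant genes, lay at 8.62 to 9.67 (median 8.95) against 7.01 to 8.54 (median 7.94), a difference of 1.14 (adjusted p = 0.00306) with no overlap. Muc15, a membrane mucin also found on milk fat globules, rose by 1.13 (adjusted p = 0.00948). Genes detected on no GFP+ array included Grb14, an adaptor of the insulin receptor (at least 2.80-fold lower), and Ffar4, a fatty acid receptor (at least 2.38-fold lower).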
